A study of Mus musculus with 2 samples.

Results

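The sonic hedgehog pathway genes described here were 8 of the 32285 genes in the deposited matrices, taken by symbol: the transcription factors Gli1, Gli2 and Gli3, the receptor Ptch1, the signal transducer Smo and the co-receptors Boc, Cdon and Gas1. Their RNA was measured by single-cell RNA sequencing of tissue at embryonic day (E) 16.5, given as brain hemispheres in the sample labels and as cerebral cortex in the series design, and holding ventral cell classes as well, in 2 libraries labelled WT in genotype, called WT replicate 1 and WT replicate 6 after the numbers in their labels. The series was designed around an Emx1-Cre conditional knockout of Dot1l, a histone methyltransferase gene, in which Cre acts in the cortical lineage. The knockout was not analysed here, so no genotype was compared and every comparison below is between cell classes of WT embryos. Whether the WT embryos carried Emx1-Cre or a floxed allele was not given in the sources used here.

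Sonic hedgehog is a secreted protein that binds Ptch1 at the primary cilium and relieves its block on Smo, which then turns the Gli proteins from repressors into activators of transcription. Boc, Cdon and Gas1 bind the ligand together with Ptch1, while Gli3 acts mainly as the repressor and Gli1 solely as an activator whose gene, like Ptch1, is itself switched on by the signal. In the embryonic telencephalon the pathway is known for patterning the ventral domain that forms the medial ganglionic eminence (MGE), where Gli3 opposes it, and later for its part in cortical progenitor division and oligodendrocyte production.

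On mm10, the build in the submitters' processing notes, the genes lay on chromosome 10 at 127329882 to 127341579 (Gli1), chromosome 1 at 118834061 to 119054405 (Gli2), chromosome 13 at 15463723 to 15730026 (Gli3), 63508328 to 63573460 (Ptch1) and 60174405 to 60177535 (Gas1), chromosome 6 at 29735497 to 29761366 (Smo), chromosome 16 at 44485045 to 44558870 (Boc) and chromosome 9 at 35421528 to 35507652 (Cdon), by RefSeq coordinates on GRCm38.p6. All 8 are protein-coding. They span from 3131 bases (Gas1) to 266304 bases (Gli3). Because the files do not state whether intronic reads were counted, levels are compared within a gene only, never between genes.

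The table of promoters from RefSeq (GRCm38.p6) held 6 of the 8 genes, namely Gli2, Gli3, Ptch1, Smo, Cdon and Gas1. The 250 bases upstream of the listed start are shown for Gli2, because it alone among them held the core of the Gli binding motif, for Gli3, the gene that separated the progenitor classes over a wide range, and for Ptch1, a known target of the pathway. Capitals mark the Gli core, and the lines are written 5′ to 3′ on the strand of the gene.
Gli2 (chr1:119053620-119053869, minus strand, core in capitals): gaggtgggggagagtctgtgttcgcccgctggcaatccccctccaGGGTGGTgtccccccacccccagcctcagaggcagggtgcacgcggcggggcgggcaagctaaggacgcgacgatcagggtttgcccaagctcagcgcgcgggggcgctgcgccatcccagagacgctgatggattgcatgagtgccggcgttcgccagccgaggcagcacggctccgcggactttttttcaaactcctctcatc
Gli3 (chr13:15463473-15463722, plus strand, no core): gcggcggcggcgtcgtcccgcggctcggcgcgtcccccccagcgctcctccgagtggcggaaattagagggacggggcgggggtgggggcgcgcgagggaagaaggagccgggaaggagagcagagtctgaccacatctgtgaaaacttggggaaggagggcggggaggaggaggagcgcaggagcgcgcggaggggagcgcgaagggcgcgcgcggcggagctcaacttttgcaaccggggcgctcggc
Ptch1 (chr13:63565736-63565985, minus strand, no core): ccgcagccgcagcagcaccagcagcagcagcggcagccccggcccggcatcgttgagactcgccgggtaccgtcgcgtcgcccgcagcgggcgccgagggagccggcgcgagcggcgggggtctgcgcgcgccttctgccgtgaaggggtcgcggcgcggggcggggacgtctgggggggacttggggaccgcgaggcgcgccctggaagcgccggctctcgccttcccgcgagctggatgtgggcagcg
Both strands were searched for the Gli consensus GACCACCCA and for its core ACCACCC, which lies within the consensus. The Gli2 window held the core once, on the reverse strand, and none of the 6 windows held the consensus. Over 32851 promoter windows of the same length, 3.92% held the core and 0.225% the consensus. A match of letters is a description of the window and not evidence of binding. The windows of Gli3 and Ptch1 were rich in G and C, at 72.8% and 78.4% with 34 and 41 CpG sites, against medians of 52.4% and 6 over all windows. The Cdon window was not, at 42.8% and 1 CpG site. The Gli2, Ptch1 and Cdon windows lie inside the span of their genes, upstream of a start that is not the outermost one.

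Cell classes were gated on UMIs (unique molecular identifiers, each counting 1 captured mRNA molecule) of marker genes, none of which was among the 8. Of 27182 deposited cells, 14571 were kept after filters on depth, mitochondrial content and doublets. The gates gave 453 cortical radial glial cells (RGCs), the stem cells of the cortex, 348 intermediate progenitors (IPCs), their neurogenic daughters, 510 ganglionic eminence (GE) progenitors, which form inhibitory neurons, 61 oligodendrocyte precursors (OPCs), 3537 cortical excitatory neurons and 1702 interneurons. A further 278 striatal neurons, 78 Cajal-Retzius cells, 162 fibroblasts, 88 mural, 112 endothelial, 133 microglial and 503 erythroid cells were gated, and 6604 cells (45.3%) entered no class. Markers held out of the gates were highest in their own class for 5 of 7 genes in RGCs, 5 of 5 in IPCs, 3 of 4 in GE progenitors, 4 of 4 in OPCs, 5 of 7 in excitatory neurons and 5 of 6 in interneurons. GE progenitors also carried the interneuron gate markers, at a summed 3510 and 2783 CPM (UMI counts scaled to a common total of 1e6 per class and library) against 12249 and 13930 in interneurons, with all 4 markers detected. In OPCs the same sum was 1648 and 1848 CPM, nearly all of it Erbb4 (1733 CPM), with Gad1 at 1.82 CPM, Gad2 at 7.79 CPM and Dlx6os1 at 5.20 CPM. OPCs further held the RGC markers at 654 and 1068 CPM against 1773 and 1665 in RGCs. The part of these markers in the results was not tested.

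The libraries held 74930397 and 68964234 UMIs and were distinct, with a chi-square of 26.9 per degree of freedom over their summed counts. They shared 59 barcodes, 0.45% of those in the smaller library. RGCs were sequenced to a median of 9634 and 9236 UMIs per cell, IPCs to 9374.5 and 8833, GE progenitors to 10220 and 9594, OPCs to 9119 and 11418, excitatory neurons to 8844.5 and 7981, and interneurons to 3323.5 and 3298. Free RNA was present, since Hbb-bs, a globin gene of red blood cells, had a UMI in 99.6% of cells.

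All 8 genes were detected, and RGCs held a much larger share of most of their UMIs than of UMIs overall. RGCs contributed 4.28% of the UMIs of the kept cells but 40.9% of those of Gas1, 34.9% of Gli1, 32.6% of Gli3, 22.6% of Cdon, 21.4% of Gli2, 18.99% of Boc, 13.3% of Ptch1 and 9.78% of Smo. The ungated cells, with 39.2% of all UMIs, held between 27.9% (Gli1) and 41.6% (Ptch1) of the UMIs of each gene. Total UMIs in the kept cells ranged from 129 for Gli1 to 10240 for Cdon, so the values for Gli1 rest on few molecules.

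The ligand itself was nearly undetected. Shh had 22 UMIs over all deposited cells of WT replicate 1 and 13 over those of WT replicate 6. Of the 24 Shh UMIs in kept cells, 7 were in interneurons of WT replicate 1, 1 each in RGCs, GE progenitors, excitatory neurons and striatal neurons, and 13 in ungated cells. Interneurons of WT replicate 6 had 0, so the interneuron level was not shared by the libraries.

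The receptor Ptch1 was the only one of the 8 genes with its highest level in OPCs, 112 and 117 CPM (36 and 32 UMIs) in WT replicates 1 and 6. RGCs followed at 93.8 and 93.4 CPM (200 and 210 UMIs). Fibroblasts (56.4 CPM ± 22.0, SD, n = 2), GE progenitors (54.3 CPM ± 2.58) and striatal neurons (53.7 CPM ± 1.99) had overlapping values. Interneurons held 41.1 and 37.3 CPM, above the 34.8 and 24.1 CPM of IPCs in both libraries. Excitatory neurons were low, at 11.5 and 11.3 CPM, and only erythroid cells were lower, at 5.86 and 1.51 CPM. IPCs thus ranked ninth of the 13 classes for Ptch1, whereas they were second for Gli2, Gli3, Boc, Cdon and Gas1.

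Smo, the transducer that Ptch1 holds in check, was the most evenly spread of the 8. Its level was 75.5 and 79.6 CPM in RGCs (161 and 179 UMIs), 60.7 and 55.7 CPM in GE progenitors and 48.9 and 63.1 CPM in IPCs. Fibroblasts were slightly above RGCs at 85.8 and 80.8 CPM. Microglia (45.7 and 43.8 CPM), OPCs (31.2 and 40.1 CPM), interneurons (30.4 and 28.9 CPM) and excitatory neurons (23.0 and 21.2 CPM) all held Smo. GE progenitors and IPCs overlapped, and mural cells overlapped with both microglia and OPCs.

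The co-receptors were highest in RGCs. Cdon was at 512 and 543 CPM in RGCs (1092 and 1222 UMIs), at 277 and 257 CPM in IPCs and at 97.3 and 127 CPM in GE progenitors. Boc was at 132 and 137 CPM in RGCs, 82.5 and 87.2 CPM in IPCs and 25.0 and 27.2 CPM in GE progenitors. Gas1 was at 269 and 348 CPM in RGCs, 145 and 87.2 CPM in IPCs and 39.8 and 41.0 CPM in GE progenitors. In both libraries all 3 fell from RGCs to IPCs to GE progenitors, an order that Gli2 and Gli3 also held. Gas1 varied more between the libraries of RGCs and IPCs than Cdon and Boc did.

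Among neurons the co-receptors parted ways. Excitatory neurons kept Cdon (54.9 and 63.2 CPM) and Boc (22.3 and 24.9 CPM) but had almost no Gas1 (1.90 and 2.51 CPM). Interneurons held Cdon at 37.3 and 36.4 CPM, with Boc at 2.32 and 3.58 CPM and Gas1 at 6.08 and 5.07 CPM. Striatal neurons held Cdon at 90.7 CPM ± 2.74. In OPCs, Cdon was uneven between the libraries (109 and 40.1 CPM, 35 and 11 UMIs), while Gas1 was even (65.4 and 65.6 CPM).

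Of the transcription factors, Gli3 was at 740 and 677 CPM in RGCs (1578 and 1523 UMIs), at 273 and 222 CPM in IPCs and at 162 and 169 CPM in GE progenitors. Fibroblasts (122 CPM ± 11.3), OPCs (115 CPM ± 38.8) and mural cells (102 CPM ± 12.9) came next with overlapping values. Neurons were far below, at 14.3 and 15.4 CPM in excitatory neurons and 6.08 and 5.97 CPM in interneurons. Gli2, the main activator, had a flatter order in progenitors, with 195 and 180 CPM in RGCs, 149 and 164 CPM in IPCs and 109 and 103 CPM in GE progenitors. It was low in OPCs, at 28.0 and 7.29 CPM (9 and 2 UMIs).

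Gli1, the readout of active signalling, was scarce throughout. RGCs had 21 and 24 UMIs (9.84 and 10.7 CPM) and fibroblasts 11 and 10 UMIs (10.2 and 9.51 CPM), with overlapping values. IPCs had 8 and 1 UMIs, GE progenitors 5 and 8, OPCs 2 and 0, and interneurons 2 and 1. In the 3537 excitatory neurons no Gli1 UMI was found in either library, which allows a level of up to 0.0934 CPM over the class (3 counts of its UMIs). Gli1 was also at 0 UMIs in striatal neurons, Cajal-Retzius cells, mural, endothelial, microglial and erythroid cells.

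**Figure D1:**
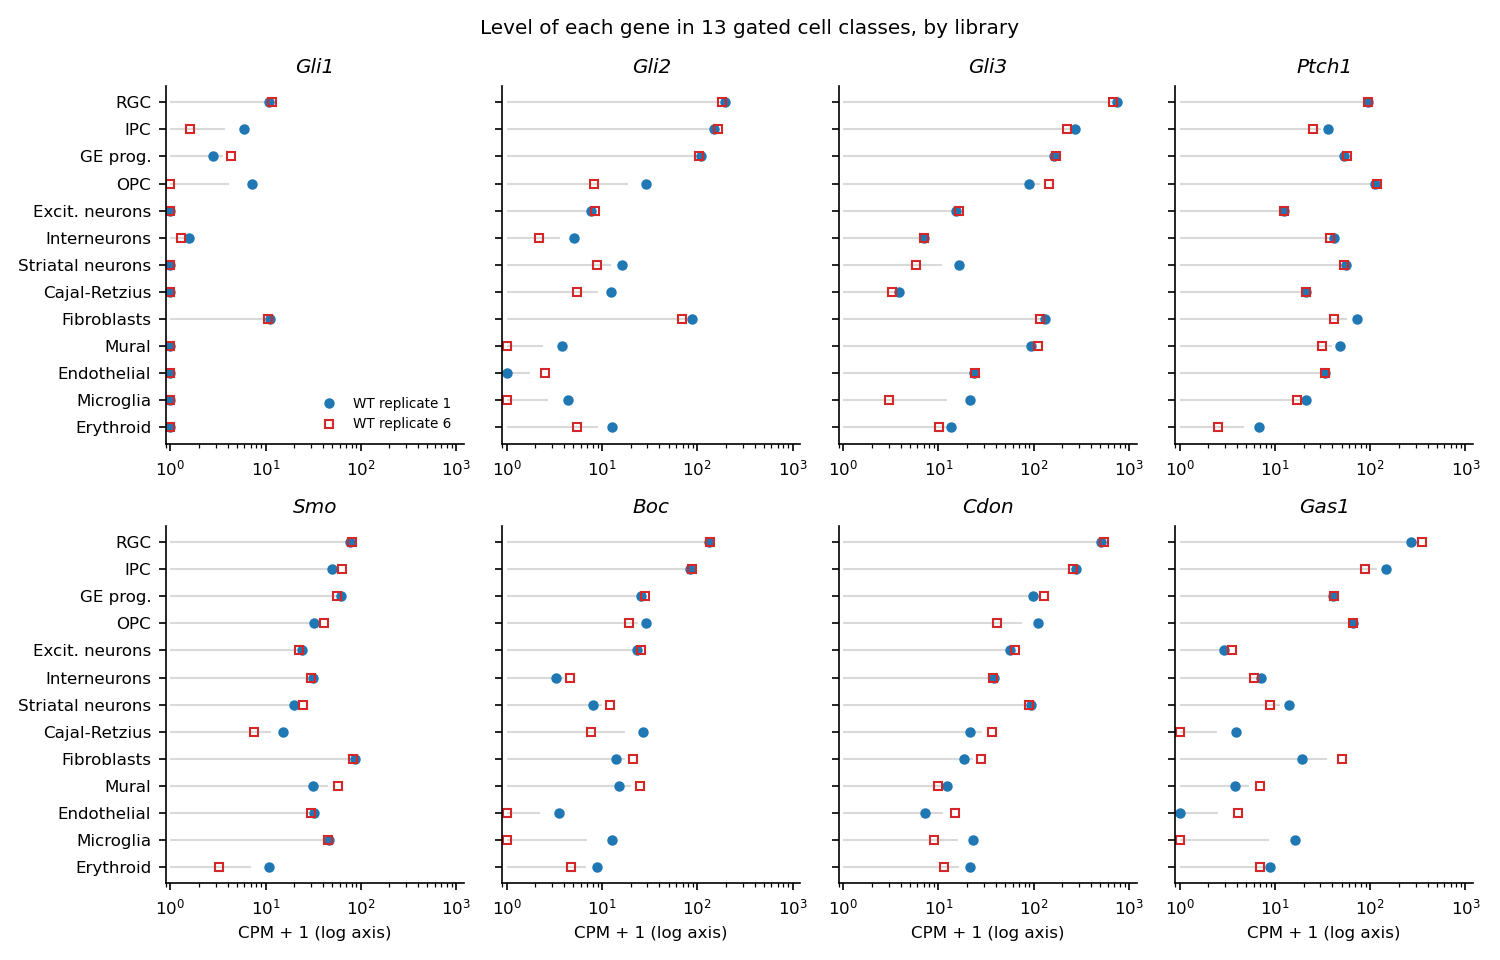
Level of each of the 8 genes in 13 gated cell classes, as CPM + 1 on a log axis, with a filled circle for WT replicate 1, an open square for WT replicate 6 and a grey line to their mean. RGCs lie at or near the top for every gene, Ptch1 peaks in OPCs at 112 and 117 CPM, and Gli1 exceeds 9 CPM only in RGCs and fibroblasts.

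To see how these levels are spread over cells, each cell was thinned to 2000 UMIs and the share of cells with at least 1 UMI was taken. Among RGCs, 66.5% of cells had a Gli3 UMI (exact binomial 95% interval 62.0% to 70.9%), 50.6% a Cdon UMI (45.8% to 55.3%) and 40.6% a Gas1 UMI (36.0% to 45.3%). Gli2 was found in 27.1%, Boc in 21.5%, Smo in 17.1%, Ptch1 in 14.2% and Gli1 in 2.44% of RGCs. The intervals cover counting error only. Without thinning, the shares in RGCs were 93.8% for Gli3, 76.2% for Cdon, 71.7% for Gas1, 65.3% for Gli2, 61.6% for Boc, 48.8% for Smo, 42.2% for Ptch1 and 8.39% for Gli1. Thinning left out 2 RGCs, 0 IPCs, 2 GE progenitors, 2 OPCs, 13 excitatory neurons, 292 interneurons and 95 erythroid cells that were shallower than 2000 UMIs.

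Erythroid cells, with median depths of 3023 and 3702 UMIs, served as the background and had a UMI in 0% (Gli1, Boc) to 1.23% (Gli2, Cdon) of thinned cells. The shares in RGCs, IPCs and GE progenitors were above these values for every gene except Gli1. Gli1 was at 0.575% in IPCs and 0.394% in GE progenitors (2 thinned cells in each), within the erythroid interval. In excitatory neurons, Gli2 (1.70%, 1.30% to 2.19%) and Gas1 (0.539%) were within the erythroid intervals, so this background did not separate their UMIs there from free RNA. The erythroid gate rested on globin UMIs alone and did not leave out cells with neural markers. Gli2 was at 7.06 CPM in excitatory neurons, against 1.40 CPM in mural, 0.769 CPM in endothelial and 1.69 CPM in microglial cells (1, 1 and 2 UMIs). Gas1 was at 2.21 CPM in excitatory neurons, against 4.39, 1.54 and 7.62 CPM in those classes. In interneurons, Gli2 (0.496%), Gli3 (1.21%), Gas1 (0.922%), Boc (0.851%) and Gli1 (0.142%) were also within the erythroid intervals. Ptch1 in interneurons (7.73%, 6.39% to 9.25%) and Cdon in excitatory neurons (10.6%, 9.56% to 11.6%) were above the erythroid shares of 0.490% and 1.23%. In thinned microglia, planned as a further background, Cdon was at 2.50% (0.519% to 7.13%) and Ptch1 at 6.67% (2.92% to 12.7%). That Ptch1 interval holds the shares of interneurons, IPCs (4.31%) and GE progenitors (9.45%), so Ptch1 there was above the erythroid background only. Smo had a UMI in 12.5% of thinned microglia, a class with median depths of 8748 and 7205.5 UMIs, as against 0.245% of erythroid cells.

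**Figure D2:**
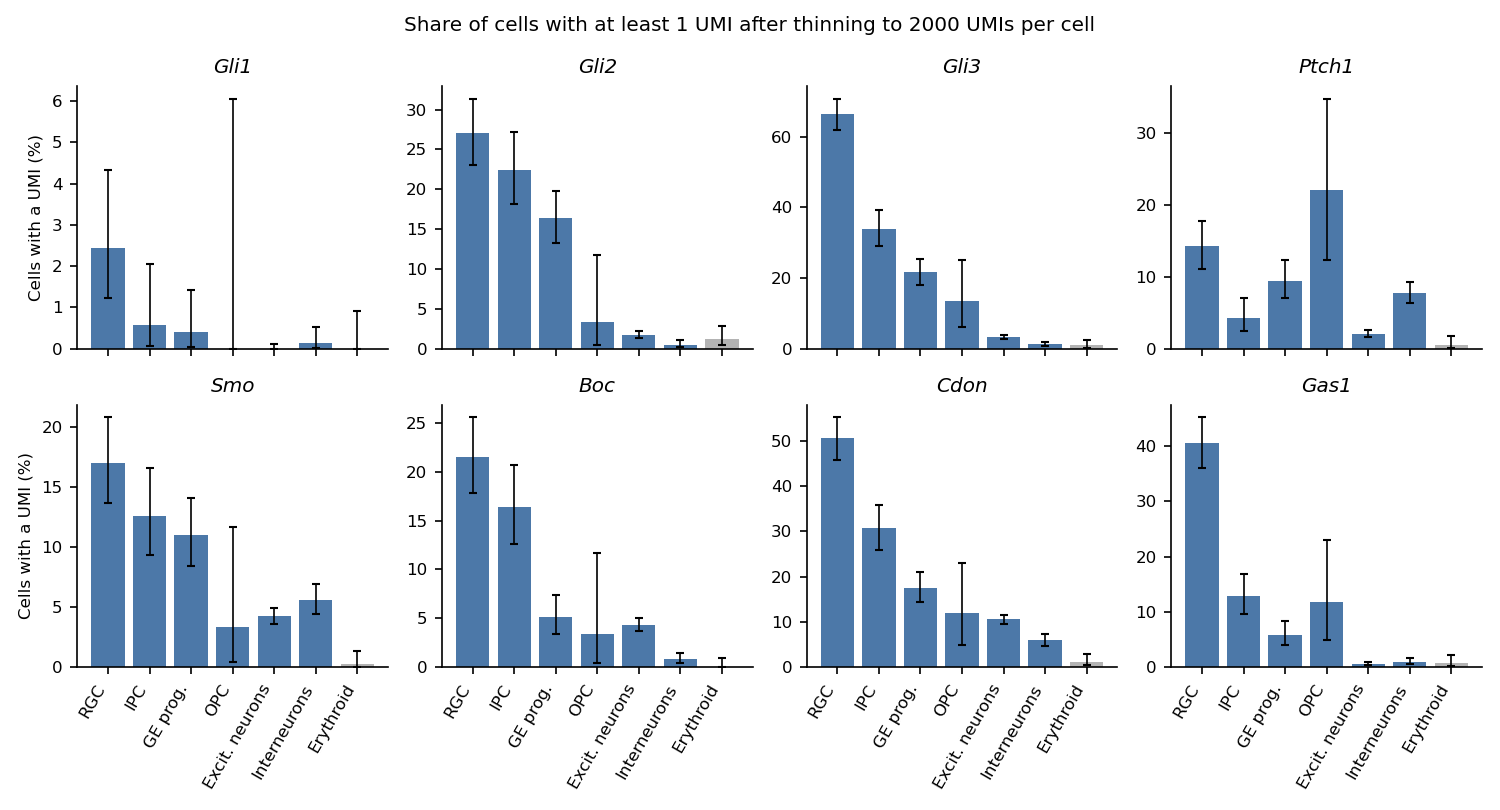
Share of cells, in percent, with at least 1 UMI of each gene after thinning every cell to 2000 UMIs, in 6 classes (blue) and in erythroid cells as background (grey). Error bars are exact binomial 95% intervals, axes start at 0 and differ between genes. Gli3 falls from 66.5% of RGCs to 3.18% of excitatory neurons, while Ptch1 is at 22.0% of OPCs.

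A thinned RGC held a median of 2 of the 8 genes, and 5.32% of RGCs held none. The mean number of the 8 genes detected per thinned cell was 2.39 and 2.41 in RGCs, 1.39 and 1.29 in IPCs, 0.859 and 0.890 in GE progenitors, and 0.727 and 0.654 in OPCs. It was 0.269 and 0.264 in excitatory neurons, 0.251 and 0.206 in interneurons and 0.056 and 0.044 in erythroid cells. The libraries gave the same order of these classes.

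To ask whether the genes change when RGCs give rise to IPCs, UMIs were summed per library and class and tested with edgeR's quasi-likelihood test, with Benjamini-Hochberg adjustment over all genes tested and a threshold of 0.05. There are 2 sums per class, 1 per library, and the labels do not say that the libraries are separate embryos, so p-values measure only the spread between these libraries. Of the 8 genes, 6 were higher in RGCs and none was lower, where 29.6% of 11398 genes differed in either direction and 16.2% were higher in RGCs. The median log2 difference of the 8 genes was 1.15, against -0.01 over all genes. Ptch1 was 3.07-fold higher in RGCs (log2 1.62 ± 0.19 SE, edgeR adjusted p = 2.45e-05), Gli3 2.78-fold (log2 1.47 ± 0.15, adjusted p = 7.3e-06) and Gas1 2.57-fold (log2 1.36 ± 0.20, adjusted p = 0.000194). Within single libraries the Gas1 difference was 0.85 and 1.94 on the log2 scale. In cells without cycling marker UMIs it was 2.10, and that of Ptch1 was 2.26.

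Cdon was 1.92-fold higher in RGCs than in IPCs (log2 0.94 ± 0.13, edgeR adjusted p = 0.000133) and Boc 1.53-fold (log2 0.62 ± 0.14, adjusted p = 0.00403). Both co-receptors missed the threshold among cells without cycling marker UMIs, at log2 0.31 (Boc, adjusted p = 0.557) and 0.67 (Cdon, adjusted p = 0.139). That setting left 34 and 27 RGCs. Among cells with cycling marker UMIs both were called, at log2 0.67 (Boc, edgeR adjusted p = 0.00402) and 0.93 (Cdon, adjusted p = 0.000122). At least 2 cycling markers were found in 70.1% and 75.0% of RGCs, against 43.9% and 36.4% of IPCs. Gli1 was called at log2 1.83 ± 0.56 (adjusted p = 0.0255) but rested on 9 UMIs in IPCs. Its call was lost with DESeq2 (adjusted p = 0.159), with no filter on low counts (0.058), with stricter cell filters (0.0741) and among cycling cells (0.0693), and its log2 differences in the single libraries were 0.94 and 3.59. Gli2 differed by log2 0.22 ± 0.14 (adjusted p = 0.254) and Smo by 0.43 ± 0.17 (adjusted p = 0.0749), neither past the threshold. Smo passed once the replicate block was fitted (adjusted p = 0.0329), and Gli2 was called among cells without cycling marker UMIs (log2 0.99, adjusted p = 0.023).

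RGCs and cortical excitatory neurons differed in all 8 genes, each higher in RGCs. Here 62.6% of 14615 genes differed and 30.3% were higher in RGCs, so a difference was the common case. Gas1 showed 120-fold (log2 6.91 ± 0.17, edgeR adjusted p = 6.55e-10), Gli3 41.3-fold (log2 5.37 ± 0.13, adjusted p = 6.33e-10) and Gli2 23.0-fold higher levels (log2 4.52 ± 0.11, adjusted p = 6.55e-10). The thinned neuronal shares of Gas1 and Gli2 were within the erythroid intervals given above. Cdon (7.75-fold), Ptch1 (7.11-fold), Boc (4.93-fold) and Smo (3.04-fold) differed less, with adjusted p from 6.98e-09 to 5.37e-07. Gli1 was at least 110-fold higher in RGCs, taking 3 counts over the neuronal class in place of 0.

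RGCs and GE progenitors are the dorsal and ventral stem and progenitor cells of the telencephalon. Between them 7 of the 8 genes were higher in RGCs and none was lower, where 39.1% of 11746 genes differed and 19.9% were higher in RGCs. The co-receptors differed widely, Gas1 by 7.35-fold (log2 2.88 ± 0.15, edgeR adjusted p = 5.58e-07), Boc by 4.96-fold (log2 2.31 ± 0.14, adjusted p = 1.27e-06) and Cdon by 4.55-fold (log2 2.19 ± 0.15, adjusted p = 2.45e-06). The repressor Gli3 was 4.14-fold higher in RGCs (log2 2.05 ± 0.13, adjusted p = 1.57e-06), and Gli1 3.85-fold (log2 1.95 ± 0.42, adjusted p = 0.00445). The Gli1 value rested on 13 UMIs in GE progenitors, where its thinned share was within the erythroid interval. Without thinning, 2.35% of GE progenitors (1.22% to 4.07%) had a Gli1 UMI, against 0% of the shallower erythroid cells (up to 0.731%). Among cells without cycling marker UMIs, which left 31 and 18 GE progenitors, the difference was larger for Gli3 (log2 5.51, adjusted p = 4.39e-07) and Cdon (3.80, adjusted p = 8.21e-06).

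Over all cells, Gli2 and Ptch1 differed less between RGCs and GE progenitors, by 1.70-fold (log2 0.76 ± 0.12, edgeR adjusted p = 0.000611) and 1.66-fold (log2 0.73 ± 0.13, adjusted p = 0.00155). Among cells without cycling marker UMIs, Gli2 differed by log2 4.70 (adjusted p = 3.74e-05), and the Ptch1 call was lost at log2 1.19 (adjusted p = 0.0736). Smo differed by log2 0.36 ± 0.14 and missed the threshold (adjusted p = 0.063), but passed it with the replicate block (0.0198) and without TMM scaling (0.037). The classes were gated differently with respect to cycling, and 70.1% and 75.0% of RGCs against 78.5% and 83.7% of GE progenitors had at least 2 cycling markers.

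Oligodendrocyte precursors, which arise late and expand through gestation, were the smallest class, with 35 and 26 cells. Against OPCs, 6 of the 8 genes were higher in RGCs and none was lower, where 15.6% of 10491 genes differed and 6.87% were higher in RGCs. Gli2 was 9.52-fold (log2 3.25 ± 0.36, edgeR adjusted p = 7.55e-07), Cdon 6.48-fold (log2 2.70 ± 0.31, adjusted p = 1.32e-06), Gli3 5.88-fold (log2 2.56 ± 0.27, adjusted p = 4.25e-07), Boc 5.35-fold and Gas1 4.42-fold higher in RGCs. Single libraries gave log2 2.68 and 4.48 for Gli2 and 2.13 and 3.68 for Cdon. Stricter gates gave log2 5.35 for Gli2, 3.25 for Gli3 and 3.02 for Boc. In cells without cycling marker UMIs, of which OPCs had 8 in each library, Gli2 differed by log2 7.59, Gli3 by 4.19, Gas1 by 3.93 and Boc by 3.10. Smo was 2.06-fold higher in RGCs (log2 1.05 ± 0.30, adjusted p = 0.0208), a call lost with DESeq2 (0.203) and with stricter cell filters (0.0753).

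Ptch1 did not follow. Its log2 difference between RGCs and OPCs was -0.38 ± 0.22, with OPCs above RGCs in both libraries (-0.36 and -0.39), and it was not called (edgeR adjusted p = 0.315). Gli1 was not called either (log2 1.498 ± 0.91, adjusted p = 0.333), with 2 UMIs in OPCs. OPCs therefore held Ptch1 at a level that could not be separated from that of RGCs at this depth, with Gli2, Gli3 and the 3 co-receptors all lower.

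GE progenitors and interneurons are the ventral counterpart of RGCs and neurons. All 7 genes that passed the filter on low counts were higher in GE progenitors, where 56.0% of 12423 genes differed and 28.1% were higher in GE progenitors; Gli1, with 13 and 3 UMIs over the classes, was not tested. Gli2 was 39.9-fold (log2 5.32 ± 0.27, edgeR adjusted p = 1.85e-07), Gli3 27.4-fold (log2 4.78 ± 0.15, adjusted p = 9.72e-09), Boc 8.81-fold and Gas1 7.23-fold higher in GE progenitors. The thinned interneuron shares of all 4 were within the erythroid intervals. The Gli2 difference was log2 4.70 and 6.27 in the single libraries, and that of Boc was 3.93 with stricter cell filters. Cdon (3.05-fold) and Smo (1.98-fold) differed less.

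Ptch1 differed little between GE progenitors and interneurons, by 1.39-fold (log2 0.48 ± 0.14, edgeR adjusted p = 0.0157). Its call was lost with DESeq2 (adjusted p = 0.157) and with all classes in a single fit (0.0555). Interneurons were gated to have at most 1 cycling marker while most GE progenitors were cycling. Among cells without cycling marker UMIs, which left 31 and 18 GE progenitors, none of the 5 genes tested was called by edgeR, 1 had an unadjusted p under 0.05, and Cdon turned direction (log2 -0.43, adjusted p = 0.807). Only 19 of 10002 genes were called in that setting.

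**Figure D3:**
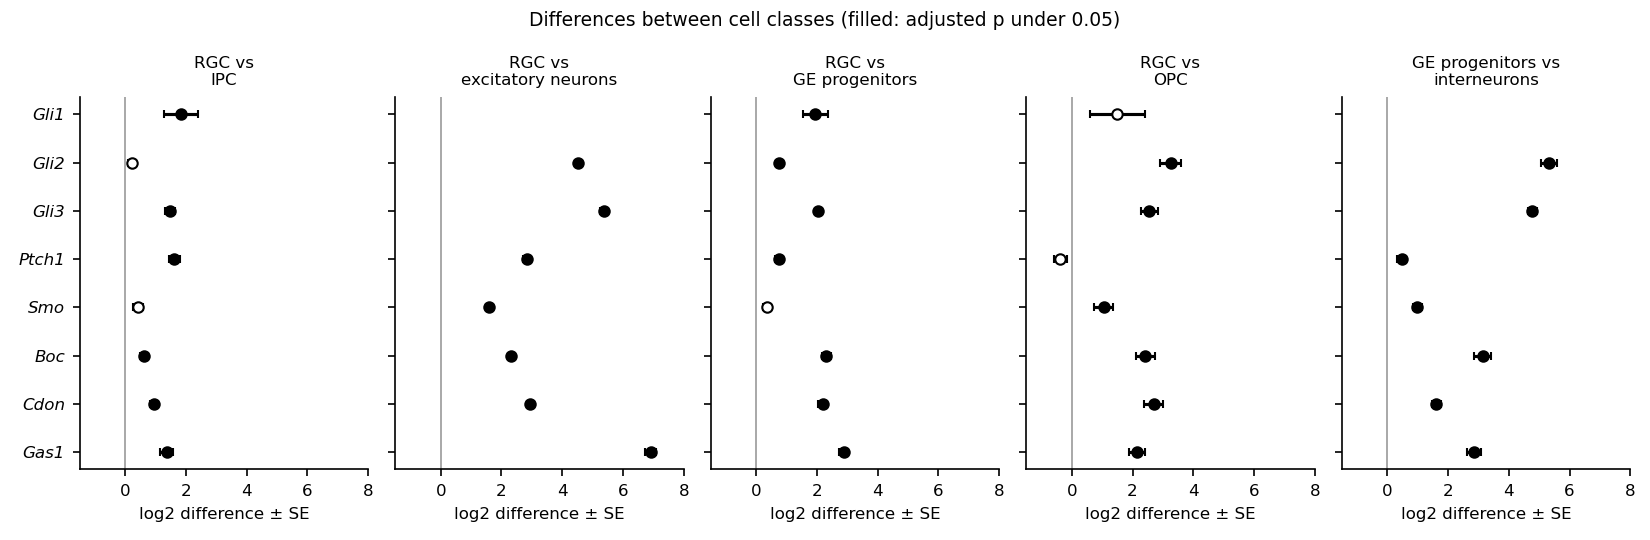
Log2 difference between the first-named and second-named class (± SE from the edgeR fit) for each of the 8 genes in the 5 comparisons, with filled points for adjusted p under 0.05 and open points above. Gli1 is left out against excitatory neurons, where it had 0 UMIs, and in the comparison with interneurons, where it was not tested; the Ptch1 difference is below 0 only against OPCs.

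GE progenitors were not uniform. Nkx2-1, a transcription factor of the MGE and a known hedgehog target, had a UMI in 61 of the 510 GE progenitors (37 and 24 cells), with median depths of 10502 and 9472 UMIs against 10104 and 9594 in the other 449 cells. The split was chosen after values had been seen and is given as a description, without a test. Cells with a Nkx2-1 UMI had Gli3 at 37.1 and 42.2 CPM, against 181 and 183 CPM in cells without. Cdon was at 10.6 and 21.1 CPM against 111 and 138 CPM. Gas1 had 1 UMI in each library (2.65 and 4.22 CPM) against 45.6 and 45.1 CPM.

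The same cells held Gli2 at 2.65 and 29.5 CPM against 126 and 112 CPM, and Boc at 0 and 16.9 CPM against 28.9 and 28.3 CPM. Ptch1, at 42.4 and 59.1 CPM against 54.0 and 55.8 CPM, and Smo, at 53.0 and 63.3 CPM against 62.0 and 54.8 CPM, overlapped between the subsets. Gli2, Gli3, Cdon, Boc and Gas1 were lower in the cells with a Nkx2-1 UMI in both libraries, on as few as 1 and 7 UMIs for Gli2 and 0 and 4 for Boc. How many of all genes part likewise in this split was not counted. A cell without a Nkx2-1 UMI can still express the gene, since detection depends on depth. In 83 interneurons with a Nkx2-1 UMI, Gli1, Gli2, Gli3 and Boc had 0 UMIs, which allows up to 6.80 CPM each, whereas Ptch1 was at 30.3 and 45.1 CPM and Smo at 64.5 and 50.7 CPM.

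**Figure D4:**
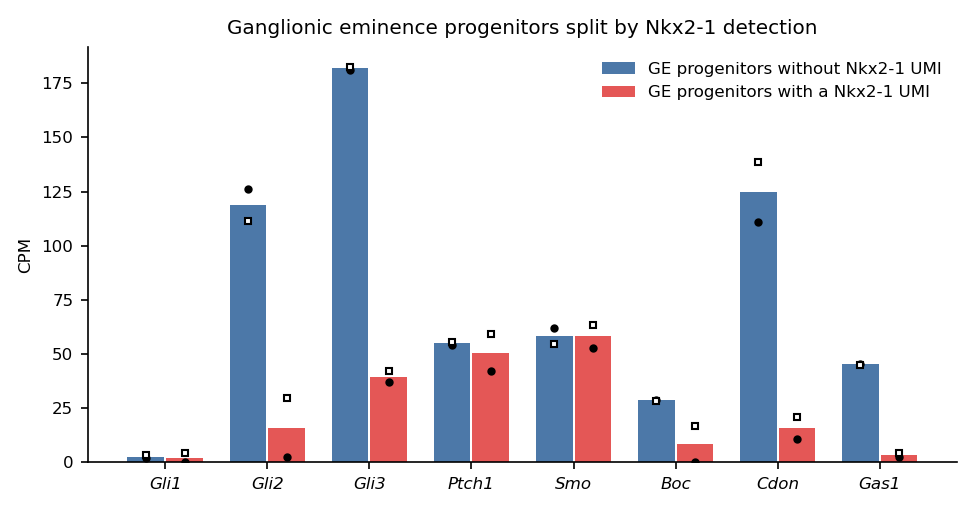
Level in CPM of the 8 genes in GE progenitors without (blue, 449 cells) and with (red, 61 cells) a Nkx2-1 UMI. Bars are means of the libraries, filled circles WT replicate 1 and open squares WT replicate 6; Gli2, Gli3, Boc, Cdon and Gas1 are lower in the cells with a Nkx2-1 UMI, and Ptch1 and Smo overlap.

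RGCs also varied with the cell cycle, again as a description. In 329 RGCs with at least 2 cycling markers and 61 without any, Gas1 was at 334 CPM ± 59.5 and 191 CPM ± 46.3 (SD, n = 2 libraries), and Cdon at 574 CPM ± 26.2 and 400 CPM ± 90.7. Boc was at 138 CPM ± 2.56 and 108 CPM ± 5.80. Gli2 (187 and 194 CPM), Smo (78.7 and 83.5 CPM) and Ptch1 (87.8 and 93.7 CPM) had close means. In WT replicate 1 the RGCs without cycling markers were shallower, with a median of 3783.5 UMIs against 10258.

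The wider pathway was read from a list of 45 genes. In RGCs against IPCs, 13 of 36 tested genes were called, 6 higher in RGCs and 7 higher in IPCs, with a median log2 difference of 0.08. This share is near the 29.6% of all genes called, and the count fell to 5 with DESeq2 and to 3 of 20 among cells without cycling marker UMIs. RGCs had more of the ligand binders Lrp2 (7.81 and 0.309 CPM, log2 4.36 ± 0.87, edgeR adjusted p = 0.00175) and Hhip (21.6 and 3.36 CPM, log2 2.61 ± 0.60, adjusted p = 0.00461) and of the target Hes1 (84.1 and 9.17 CPM, log2 3.14 ± 0.48, adjusted p = 0.000219). The single libraries differed, with log2 differences of 5.26 and 2.73 for Lrp2, 1.26 and 6.63 for Hhip and 2.43 and 6.26 for Hes1. Hhip sequesters the ligand, and Hes1 is also a Notch target. IPCs had more of Sufu, the inhibitor that holds Gli proteins in the cytoplasm (94.8 and 38.0 CPM, log2 difference -1.36 ± 0.21, adjusted p = 0.000254) and of the kinase gene Stk36 (-1.78 ± 0.34, adjusted p = 0.00132, -1.17 and -2.47 in the single libraries). Of 15 transduction genes, 5 were called, all higher in IPCs. Over all genes, 29.6% were called in either direction, which includes 16.2% that were higher in RGCs.

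Against excitatory neurons, 27 of 38 tested pathway genes were called, 14 higher in RGCs and 13 higher in neurons, beside 62.6% of all genes. The count was 9 of 34 among cells without cycling marker UMIs. Hes1 (log2 7.24), Sox9 (5.42) and Lrp2 (5.32) led in RGCs. Scube1 (74.5 CPM in neurons and 6.38 CPM in RGCs) and Scube3 (6.72 and 0.691 CPM), which encode secreted proteins that help release the ligand, and Gpr161, a ciliary inhibitor of the pathway (15.4 and 7.999 CPM), led in neurons. Of 8 cilium genes, 3 were higher in RGCs and 2 in neurons.

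Against GE progenitors, 14 of 37 tested pathway genes were called, 6 higher in RGCs, led by Hes1, Lrp2 and Hhip, and 8 higher in GE progenitors, which is close to the 39.1% over all genes. DESeq2 called 9, and 2 of 13 were called among cells without cycling marker UMIs. Nkx2-1 (32.5 and 1.57 CPM), Ccnd2 (2214 and 595 CPM) and Hhat, the enzyme that acylates the ligand (15.5 and 5.49 CPM), led in GE progenitors. The single-library log2 differences were -5.91 and -3.22 for Nkx2-1 and 1.75 and 3.22 for Hhip. Against OPCs, 3 of 32 were called, beside 15.6% of all genes, and 6 of 28 with stricter gates, with Mycn higher in RGCs (45.5 and 11.7 CPM) and Olig2 (354 and 17.2 CPM) and Ccnd1 (336 and 93.1 CPM) higher in OPCs. Olig2 marks the oligodendrocyte lineage and was a check marker of the class.

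Between GE progenitors and interneurons, 16 of 37 were called, 9 higher in GE progenitors and 7 in interneurons, a smaller share than the 56.0% of all genes. In cells without cycling marker UMIs edgeR called 0 of 28, with 2 at an unadjusted p under 0.05. Olig2 (log2 4.11, 3.48 and 4.81 in the single libraries), Ccnd1 (3.02) and Ccnd2 (3.01) led in GE progenitors. Scube1 (61.5 CPM in interneurons and 4.60 CPM in GE progenitors), Scube3 (log2 -3.00, -1.88 and -4.16 in the single libraries) and the ciliary motor gene Kif3a led in interneurons. The 7 tested target genes, which include the cell-cycle genes Ccnd1 and Ccnd2, were all higher in GE progenitors, beside 28.1% of all genes. Scube1 and Scube3 were the leading genes of both neuronal classes, in comparisons that share libraries but no cells.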

How the data were processed

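Cells of 2 WT libraries were profiled with the 10x single-cell 3' v3.1 chemistry. The deposited matrices hold unnormalized UMI counts of each gene in each cell, which the authors made with Cell Ranger 7.0.0 on mm10 per the submitters' processing notes. Whether introns were counted is not given in the sources used here. A cell passed with between 1500 and 60000 UMIs of which less than 10% were mitochondrial (8139 and 8209 cells). Doublets were scored as in Scrublet (2 simulated doublets per cell, 2000 variable genes, 30 components, 15 neighbours), and the top-scoring 920 and 857 cells (0.8% per 1000 cells) were left out. A wider neighbourhood removed most cells of rare classes and was set aside on that ground.

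Classes were gated on marker UMIs, none of them members. RGCs, for example, needed 3 of 5 radial glia markers, a Pax6 or Emx2 UMI, no Eomes or Gsx2 UMI and few neuronal UMIs. Gate thresholds were set after marker values were seen. Of 453 RGCs, 309 met a gate with 1 further marker. Cycling markers were 9 genes of the cell cycle.

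Counts were summed per library and class and tested with edgeR 4.0.16 (two-sided glmQLFTest, TMM, filterByExpr) in R 4.3.3, in 5 comparisons with only the classes compared in a fit. Alternatives were DESeq2 1.42.0, no TMM, no filter, the library as a replicate block, doublets kept, stricter cells or gates, all classes in 1 fit, non-cycling or cycling cells, and single libraries (log2 CPM with a prior count of 0.5, no test). Classes of 1 library come from the same cell suspension and are paired, with correlated deviations from the class means (r = 0.212, 0.174, 0.299, 0.086 and 0.229 across genes, in the order of the comparisons). On simulated data the test recovered 55.7% (RGCs against OPCs) to 88.9% (RGCs against excitatory neurons) of genes changed by 1 on the log2 scale, and 94.8% to 99.0% of those changed by 2. False calls made up 1.19% to 8.74% of calls, the highest for RGCs against IPCs. The simulation changed only a small part of the genes, each above a floor of expected counts in every sum. It used a common dispersion for all genes and unpaired libraries. These rates therefore do not extend to genes with few UMIs, such as Gli1.

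The members and lists were chosen with earlier results of these data known. All 8 members were named. Of 45 further pathway genes, the up to 3 called genes with the largest rise and fall per comparison were named, with Shh; 1 result under this rule is not reported here. For each member the 3 genes with the most similar levels were named, by Pearson correlation of log2(CPM + 10) over 26 sums among genes with a mean of at least 20 CPM. Figures were drawn with matplotlib 3.10.9.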

Additional observations from a re-analysis of the deposited data

How the results depend on the processing

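The 8 genes had 4 to 8 calls in the comparisons of RGCs under every alternative run. In RGCs against IPCs among cells without cycling marker UMIs the count was 4 of 7 tested. For most alternatives the share of all genes called is not given here, so these counts and the pathway counts below stand without a background. In GE progenitors against interneurons they had 6 or 7 except among cells without cycling marker UMIs, where edgeR called 0 of 5 (1 at an unadjusted p under 0.05) and 0 of 28 further pathway genes (2 at an unadjusted p under 0.05), and where Cdon reversed to -0.43 on the log2 scale. No other tool was run there, only 19 of 10002 genes were called, and the 31 and 18 GE progenitors left limit this setting. Among cells without cycling markers the pathway list had 3 calls in RGCs against IPCs, 9 against excitatory neurons and 2 against GE progenitors, with fewer genes tested. DESeq2 called 5 pathway genes in RGCs against IPCs and 9 against GE progenitors, no filter gave 8 in RGCs against IPCs, and stricter gates gave 6 in RGCs against OPCs; the cause was not tested. The replicate block added Smo in RGCs against IPCs and against GE progenitors and changed no other call among the 8 genes; it gave 17 pathway calls in each of these comparisons. Leaving out a library leaves 1 sum per class and no test, so counts of calls have no such value.

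Thinning to 3000 UMIs moved the shares of RGCs with a UMI to 1.87% (Gli1), 36.7% (Gli2), 83.4% (Gli3), 22.4% (Ptch1), 19.2% (Smo), 30.1% (Boc), 61.2% (Cdon) and 51.9% (Gas1), with more UMIs read per cell in fewer cells. With doublet calls kept, RGC levels of Ptch1 and Boc were 92.6 and 129.7 CPM. Depth limits Gli1, with 129 UMIs in all kept cells, and OPCs, with 61 cells.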

Other observations

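Genes whose level followed that of each member over the 13 classes were taken as a description, with no test, over 26 sums that share 2 libraries and differ in depth, among 7630 candidate genes. Gli1 was followed by Megf10 (Pearson r = 0.929), Pdpn (0.890) and Slc1a3 (0.831), a glial glutamate transporter that also served in the RGC gate. Gli2 was followed by Fzd2 (0.909), a Wnt receptor, Adgrv1 (0.907) and Sfrp1 (0.899), a secreted Wnt binder. The co-receptors shared Veph1, which was among the 3 nearest genes of Gas1 (0.927), Cdon (0.873) and Boc (0.870). Gas1 was further followed by Acot1 (0.927) and Igfbp5 (0.919), Boc by Gpc4 (0.914), a glypican, and Zhx2 (0.876), and Cdon by Scrn1 (0.912) and Tmem132b (0.887). Gli3 was nearest to Cenpq (0.894), Cenpm (0.888) and H2afv (0.885), of which the first 2 encode centromere proteins. Ptch1 was nearest to Pip4p2 (0.848), Nipsnap2 (0.845) and Scd2 (0.844), and Smo to Idh2 (0.898), Clcc1 (0.894) and Osgep (0.881).

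Among the members themselves, Gli3 and Gas1 (r = 0.877), Gli2 and Gas1 (0.861) and Boc and Gas1 (0.845) were most alike over the same sums. Ptch1 was least like Boc (0.378) and Gli2 (0.443). Fibroblasts, a class outside the neural lineage, held 16.3% of the Gli1 UMIs in 2.08% of all UMIs, along with Gli2 (86.7 and 67.5 CPM), Gli3 (130 and 114 CPM) and Smo, but little Boc (12.9 and 19.97 CPM) or Cdon (17.5 and 26.6 CPM).

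Within RGCs thinned to 2000 UMIs, a cell with a Cdon UMI had a Gas1 UMI in 40.5% and 53.8% of cells of WT replicates 1 and 6, against 30.9% and 36.3% of cells without one. It had a Gli3 UMI in 74.8% and 69.2% against 61.8% and 60.2%. A Boc UMI was found in 25.2% and 23.1% of cells with a Cdon UMI, against 17.3% and 20.4% of cells without one. The opposite was seen for Ptch1 beside Cdon, mainly in WT replicate 6 (13.5% and 7.69% against 14.55% and 21.2%), and for Boc beside Gas1 (18.99% and 15.4% against 22.5% and 27.0%). These pairs are a selection, and others changed direction between the libraries, such as Ptch1 beside Gli2 (19.4% and 10.9% against 11.7% and 15.4%). These shares come from sparse counts in 221 and 230 cells and were not tested.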
